A study of Mus musculus with 69 samples.

Results

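Broad H3K27me3 domains without Ring1B were studied as a class of genomic regions in CJ7 mouse embryonic stem (ES) cells, an established line, and in the embryoid bodies made from them. A domain is a peak of the merged wild-type (WT) H3K27me3 list that spans at least 20000 bp and shares not 1 bp with a peak of the merged WT Ring1B list. This rule gave 605 domains of 11884 merged H3K27me3 peaks. The other peaks were 269 that were as broad and did overlap Ring1B, 10756 shorter ones without Ring1B and 254 shorter ones with it. The domains were thus chosen by 2 measured values, the width of H3K27me3 peaks and the lack of Ring1B peaks, which are described below and not tested.

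H3K27me3 is the trimethylation of lysine on histone H3 by Polycomb repressive complex 2 (PRC2), whose subunits include EZH2, the main methyltransferase, and SUZ12, the core scaffold. Ring1B is the ubiquitin ligase of Polycomb repressive complex 1 (PRC1), which can be recruited by H3K27me3 or independently of it. In ES cells PRC2 and PRC1 are known to meet at CpG-rich promoters of developmental genes, and the mark can also spread over wide stretches away from these sites.

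The RNA-seq groups used were EZH2-mutant cells (3 libraries each as ES cells, day 4 and day 8 embryoid bodies) and WT cells (3 each at the same stages). They also included cells given GSK343, an EZH2 inhibitor, at 4 µM from 3 days before differentiation to the end (2 libraries each as ES cells, day 4 and day 8) and cells given the same volume of the vehicle dimethyl sulfoxide (DMSO; 2 each at the same stages). Replated cells came from embryoid bodies kept for a further 5 days in ES cell medium, to day 14. Those compared were GSK343 then DMSO, DMSO then GSK343, and DMSO then DMSO, with 3 libraries each. A group given GSK343 then GSK343, with values for 2 libraries, was not compared but entered the same fit and its estimate of spread. Its 2 libraries correlated at 0.789 on the log2 scale. Embryoid bodies were made in hanging drops from ES cells grown with LIF and serum on mouse embryonic fibroblast feeders, which all groups share as a possible source of RNA. The labels give neither the allele of the EZH2 mutation nor the clone. The deposited columns call the mutant libraries mu99, a name that is not explained in the sources used here. The labels also do not say whether replicates are separate cultures, so p-values measure only the spread between these libraries, which may be technical. CUT&RUN, which cuts DNA around an antibody-bound protein, gave the H3K27me3, Ring1B, Suz12 and Ezh2 lists merged over WT stages and 9 Suz12 lists of single libraries, of which 6 are from mutant cells and 3 from WT cells (replicate 2 at each stage). The labels name the merged H3K27me3 list also beside the 3 mutant H3K27me3 libraries, and no list of a single H3K27me3 or Ring1B library was used here, so the spread of the domains between libraries is unknown.

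The depth of the RNA libraries, recovered from the steps of the values, was 7.17 to 28.5 M reads for WT and mutant cells, 5.01 to 22.0 M for GSK343 and DMSO and 2.27 to 8.34 M for replated cells. Rn45s, the ribosomal RNA precursor, took 18.3% to 57.9% of reads in replicate 2 of the WT and mutant groups, with WT day 4 the highest, and 4.08% to 13.4% in replicates 1 and 3. It took 6.38% to 11.5% with GSK343 or DMSO and 8.66% to 34.0% in replated cells. Values are RPKM, which scales reads to gene length and library size. Ezh2 was at 18.3 to 26.5 RPKM in the 9 mutant libraries, against 37.2 to 62.5 RPKM in the 9 WT libraries. It was at 31.9 to 58.2 RPKM with GSK343, against 35.3 to 57.9 RPKM with DMSO. WT day 8 library 3 stood apart from libraries 1 and 2, with Sox2, a pluripotency factor inside a domain, at 79.9 RPKM, against 11.5 and 7.97 RPKM in libraries 1 and 2. Library 3 of WT ES cells, day 4 and day 8 correlated best with mutant library 3 of its stage, at 0.967, 0.99 and 0.969. Within its own group the best was 0.933, 0.954 and 0.904. The main fit has no replicate block, so what same-numbered libraries share enters its estimate of spread.

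The promoters below were chosen because the expression results turn on these genes. They run from 250 bases before to 50 after the RefSeq transcription start (GRCm38.p6, the mm10 build of the files), 5′ to 3′ on the strand of the gene, with every CG dinucleotide in capitals. Cdkn2a encodes the cell-cycle inhibitors p16INK4a and p19ARF from separate starts. Utf1 is a chromatin-bound factor of pluripotent cells, Nphs1 encodes nephrin of the kidney filter, Tbx20 is a heart T-box factor and Phlda2 is an imprinted growth regulator of the placenta.
Cdkn2a, chr4:89282143-89282442, minus strand: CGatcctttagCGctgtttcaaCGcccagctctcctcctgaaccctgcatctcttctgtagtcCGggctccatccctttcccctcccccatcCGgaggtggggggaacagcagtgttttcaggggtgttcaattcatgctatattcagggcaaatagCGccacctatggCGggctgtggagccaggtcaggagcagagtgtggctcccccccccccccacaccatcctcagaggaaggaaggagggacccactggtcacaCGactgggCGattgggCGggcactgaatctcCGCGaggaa
Cdkn2a, chr4:89294570-89294869, minus strand: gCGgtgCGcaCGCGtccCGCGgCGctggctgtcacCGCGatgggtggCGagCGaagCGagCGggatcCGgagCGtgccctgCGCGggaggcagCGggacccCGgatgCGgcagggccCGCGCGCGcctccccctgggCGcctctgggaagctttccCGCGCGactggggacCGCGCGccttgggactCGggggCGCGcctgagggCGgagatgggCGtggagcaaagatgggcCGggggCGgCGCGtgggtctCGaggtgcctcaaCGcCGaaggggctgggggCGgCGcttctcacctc
Utf1, chr7:139943606-139943905, plus strand: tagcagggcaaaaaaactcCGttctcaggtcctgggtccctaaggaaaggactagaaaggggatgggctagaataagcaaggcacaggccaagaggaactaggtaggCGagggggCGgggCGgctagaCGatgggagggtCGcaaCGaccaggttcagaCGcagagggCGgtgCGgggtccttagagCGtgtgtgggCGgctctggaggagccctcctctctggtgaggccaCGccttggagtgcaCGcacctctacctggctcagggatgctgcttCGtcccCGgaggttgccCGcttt
Nphs1, chr7:30459808-30460107, plus strand: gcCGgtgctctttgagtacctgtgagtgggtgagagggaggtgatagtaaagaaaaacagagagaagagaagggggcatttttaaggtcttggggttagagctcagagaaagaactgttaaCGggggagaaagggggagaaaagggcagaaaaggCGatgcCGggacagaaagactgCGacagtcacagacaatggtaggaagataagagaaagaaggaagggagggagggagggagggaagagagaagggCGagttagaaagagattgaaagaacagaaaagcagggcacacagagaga
Tbx20, chr9:24774254-24774553, minus strand: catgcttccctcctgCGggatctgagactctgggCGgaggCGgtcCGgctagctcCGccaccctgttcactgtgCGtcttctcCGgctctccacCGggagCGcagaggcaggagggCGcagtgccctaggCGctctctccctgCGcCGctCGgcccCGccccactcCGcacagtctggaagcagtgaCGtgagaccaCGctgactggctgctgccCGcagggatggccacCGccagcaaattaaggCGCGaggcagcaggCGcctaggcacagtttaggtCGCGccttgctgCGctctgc
Phlda2, chr7:143502475-143502774, minus strand: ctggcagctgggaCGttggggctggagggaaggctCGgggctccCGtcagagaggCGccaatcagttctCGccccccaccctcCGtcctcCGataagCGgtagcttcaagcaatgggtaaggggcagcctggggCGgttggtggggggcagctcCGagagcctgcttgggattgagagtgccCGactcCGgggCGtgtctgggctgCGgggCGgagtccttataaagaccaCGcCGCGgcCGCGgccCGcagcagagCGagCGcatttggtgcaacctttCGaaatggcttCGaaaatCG
The CG content of these starts spans much of the range seen in the class. The Cdkn2a start at chr4:89282143-89282442 holds 12 CG and that at chr4:89294570-89294869 holds 45, and both lie in the domain chr4:89264529-89316559 of 52031 bp. The Utf1, Nphs1, Tbx20 and Phlda2 promoters hold 17, 6, 26 and 26 CG. Over 21262 promoters of coding genes, 35.7% held 6 CG or fewer and 2.48% held 45 or more, and 95.4% held at least 1. The 526 coding promoters in domains had a median of 16 CG and 61.3% GC, against 18 CG and 61.0% GC for 323 promoters in broad domains with Ring1B and 11 CG and 55.0% GC for 17171 promoters in no H3K27me3 peak. The observed-to-expected ratio of CG was 0.599 in domains, against 0.699 in broad domains with Ring1B. The TATA-box letters TATAAA, read on either strand (TATAAA or TTTATA), were in the Phlda2 promoter shown, in 7.79% of promoters in domains and in 12.6% of all promoters. Letters alone mark no binding site.

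The domains were mostly narrow within their class. Their median width was 25868 bp with quartiles of 22645 and 31799 bp, and 125 spanned 20 to 22 kb, so the 20 kb limit falls where such peaks are dense. The narrowest members spanned 20092, 20144 and 20201 bp, and the widest peaks without Ring1B just outside the limit spanned 19984, 19982 and 19978 bp. In all, 37 domains reached 50 kb and 5 reached 100 kb. They covered 18.2 Mb, which is 19.3% of all bases under H3K27me3 peaks, and broad domains with Ring1B had a median width of 33208 bp.

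Merged Ring1B peaks were usually far away, though less so than from shorter peaks without Ring1B, and other H3K27me3 peaks were near. The median distance to the nearest merged Ring1B peak was 533 kb, with 73 domains within 50 kb and 4 within 5 kb. It was 822 kb for the 10756 shorter peaks without Ring1B, of which 870 had Ring1B within 50 kb. The nearest other H3K27me3 peak was at a median of 7.67 kb, and 501 domains had one within 50 kb. Neighbouring domains were a median of 902 kb apart, and 58 of 585 such gaps were under 50 kb. Chromosome 11 carried the most domains with 67, and also the most H3K27me3 peaks with 1334, so that domains were 5.02% of its peaks, beside 5.09% of all peaks. The share was highest on chromosome 17, at 8.50% with 39 domains of 459 peaks, beside 1 broad domain with Ring1B. The X chromosome carried 13 domains and 0 broad domains with Ring1B.

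The widest domain, chr7:143298829-143509025 of 210197 bp, lies in an imprinted region, where one parental copy of a gene is silent. It holds Cdkn1c, an imprinted inhibitor of the cell cycle, Phlda2, and Slc22a18, a membrane transporter. A neighbour of 93756 bp at chr7:143123988-143217743 lies beside it. The next widest were chr4:115875324-115988243 of 112920 bp with Dmbx1, a homeobox gene of the brain, and Kncn, and chr5:28108234-28218345 of 110112 bp with En2, the midbrain and hindbrain homeobox gene, and Cnpy1, an FGF signalling gene known from zebrafish. The remaining 2 above 100 kb were chr12:111395203-111496843 of 101641 bp with Tnfaip2 and Exoc3l4, and chrX:99125243-99226585 of 101343 bp with Efnb1, which encodes the ligand ephrin-B1. This last domain held no Suz12 peak in any of the 9 single-library lists. A second X domain of 80857 bp lies at chrX:99502378-99583234.

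Suz12, which the rule did not use, was sparse in the merged list and varied widely between single libraries. A merged Suz12 peak lay in 49 domains (8.10%) and a merged Ezh2 peak in 46 (7.60%), against 209 (77.7%) and 185 (68.8%) of broad domains with Ring1B. At day 8, mutant libraries 1 and 2 had a Suz12 peak in 62 (10.2%) and 232 (38.3%) domains, against 344 (56.9%) in WT library 2. At day 4, the mutant libraries had one in 122 (20.2%) and 132 (21.8%), against 19 (3.14%) in WT. In ES cells, the mutant libraries had one in 110 (18.2%) and 34 (5.62%), against 24 (3.97%) in WT. Both mutant shares were thus below the WT one at day 8 and above it at day 4 and in ES cells, and mutant libraries of 1 stage differed widely in ES cells and at day 8.

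**Figure D1:**
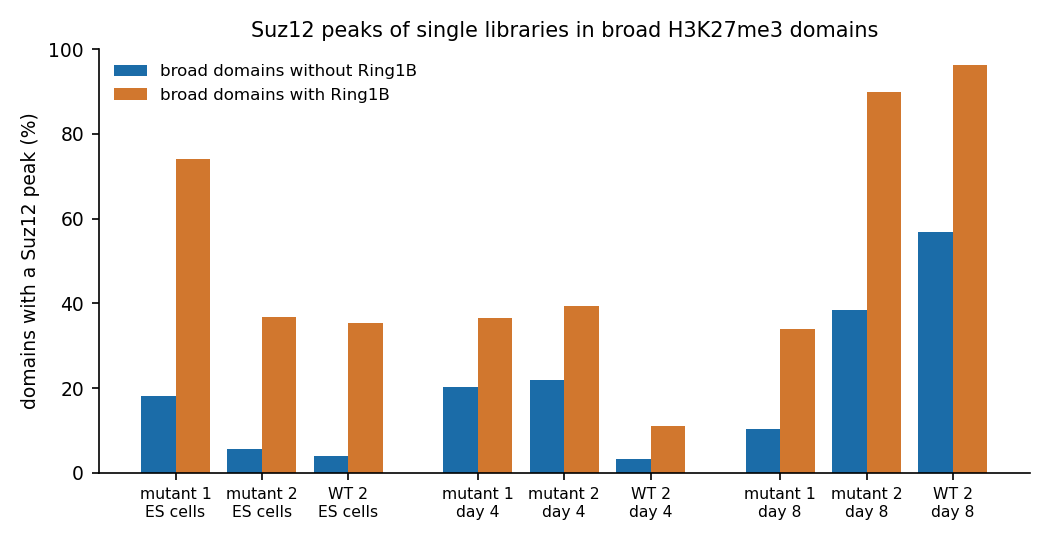
Share of domains that hold a Suz12 peak (vertical axis, percent) in each of 9 single libraries (horizontal axis, mutant before WT at each stage), for the domains without Ring1B and for broad domains with Ring1B. WT day 8 has the highest share among the domains, 56.9%, and WT day 4 the lowest, 3.14%.

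The lists differ in size and peak width. Their order by size was the order of the shares at day 4, and was not in ES cells or at day 8. At day 8 mutant libraries 1 and 2 have 3322 and 7735 peaks, against 6511 in WT library 2. At day 4 the mutant lists have 5963 and 8810 peaks, against 1000 in WT, and in ES cells 5651 and 7284, against 8493 in WT. The median peak width is 501 bp in all 6 mutant lists, against 1001 bp in all 3 WT lists. With 1 WT library per stage no test was possible, and the part of list size and peak width in the differences between mutant and WT was not tested. Broad domains with Ring1B moved the same way in the day 8 libraries, at 33.8% and 90.0% in the mutant, and were above the domains in all 9 lists.

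Which domains held Suz12 overlapped in part. Mutant day 8 library 2 and WT day 8 shared 190 domains, which is 81.9% of the mutant set and 55.2% of the WT set. Both mutant day 4 libraries shared 46, which is 37.7% and 34.8% of their sets. In all, 146 domains (24.1%) had no Suz12 peak in any of the 9 lists, against 3 broad domains with Ring1B (1.12%), and 39 (6.45%) had one in 5 or more lists, against 126 (46.8%).

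Suz12 at WT day 8 was more frequent in wide and in gene-bearing domains. It was in 213 of 414 domains of 20 to 30 kb (51.4%), in 104 of 154 of 30 to 50 kb (67.5%) and in 27 of 37 of at least 50 kb (73.0%). A wider region has more room for a peak, and the share of domains with a gene went up alike, at 74.2%, 87.7% and 94.6%. The 477 domains with a gene held Suz12 in 300 cases (62.9%), against 44 of 128 without one (34.4%), with median widths of 26458 and 24562.5 bp. These are descriptions of 1 library.

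**Figure D2:**
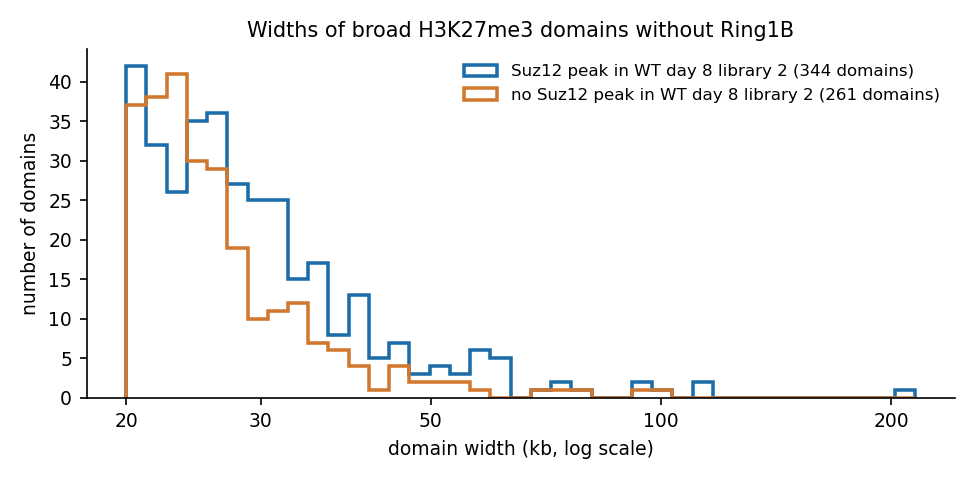
Number of domains without Ring1B (vertical axis) by width in kilobases (horizontal axis, log scale), as outlines for domains with and without a Suz12 peak in WT day 8 library 2. Domains pile up just above the 20 kb limit, and those with Suz12 are 104 of 154 between 30 and 50 kb.

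The domains held 881 genes, of which 542 were protein-coding and 253 lncRNA. Genes were placed by the RefSeq start where known (622) and otherwise by most of the span (259). No gene lay in 128 domains, 1 in 246 and 2 or more in 231, and the most was 10, in chr13:21971647-22028046. An RNA value was given for 408 genes. In the WT and mutant table the median of 363 domain genes ran over the 18 libraries from 0.599 to 1.36 RPKM, and 38.6% to 56.7% of them reached 1 RPKM. Highest on average in WT ES cells were the metallothioneins Mt1 (445 RPKM) and Mt2 (426 RPKM), which bind metal ions, followed by Sox2 (132 RPKM), Utf1 (104 RPKM) and the Nodal inhibitor Lefty1 (93.9 RPKM). The authors' deposited PRC2_target call was YES for 341 of the 342 domain genes that carry it, by a rule that was not stated. It was YES also for 100% of such genes in broad domains with Ring1B, for 99.2% in shorter peaks with or without Ring1B and for 16.7% of genes in no H3K27me3 peak.

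Of 21883 protein-coding genes, 542 (2.48%) lay in the domains and 368 (1.68%) in broad domains with Ring1B. All 43 Hox genes, which pattern the body axis, lay in broad domains with Ring1B and 0 in the domains without it. Of 206 developmental regulators, from families such as Pax, Sox, Gata, Fox, Tbx, Lhx, Nkx, Irx, Dlx, Wnt, Bmp and Fgf, 34 (16.5%) lay in the domains and 70 in broad domains with Ring1B. Those in the domains include Sox2, Fgf3, Fgf4 and Fgf8 (fibroblast growth factors), the receptor Fgfr2, Bmp4, Foxa2, Gata5, Nkx2-5, Tbx5, Tbx20, Wnt6 and Pax8. Of a chosen list of 33 imprinted genes, which is not complete, 6 lay in the domains (Cdkn1c, Dlk1, Mkrn3, Ndn, Phlda2 and Slc22a18) and 3 in broad domains with Ring1B. Of 69 protocadherin genes, whose products are adhesion proteins, 19 lay in the domains, 18 of them of the Pcdhb cluster and the other Pcdh19, against 2 in broad domains with Ring1B. Of 19 PRC2 and PRC1 subunit genes only Pcgf3 did.

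Against the 2.48% of all coding genes, the domains held 12 of 389 Slc transporter genes, 10 of 94 Kcn potassium channel genes, 5 of 400 Zfp, 3 of 106 Cyp (Cyp26a1 and Cyp26c1, which clear retinoic acid, and Cyp46a1), 2 of 28 Cdh, 2 of 59 Adam, 1 of 112 Krt, 1 of 19 Gabr and 2 of 1110 Olfr genes. They held 0 members of the Vmn, Serpin, Def, Ifn, Cecr, Grik, Grm, Mageb, Xlr and Rhox families. Of the cell type markers used below, Sox2 and Esrrb (ES cells), T (primitive streak), Foxa2 (endoderm) and Nkx2-5 (heart) lay in domains, and no neural or feeder marker did.

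The comparison of EZH2-mutant with WT cells asks how domain genes behave with altered EZH2. In ES cells 0 of 320 tested domain genes were called at an adjusted p of at most 0.05, where 0.0917% of all 14180 genes were called (0.0635% higher, 0.0282% lower), and 32 domain genes had an unadjusted p below 0.05. Limma voom on recovered reads also called 0. The smallest adjusted p belonged to Fgfr2, a receptor for FGFs, at 1.21, 0.691 and 0.372 RPKM in mutant libraries 1, 2 and 3, against 4.33, 3.75 and 4.09 RPKM in WT. The groups did not overlap, and the log2 difference on the log2(RPKM + 1) scale used throughout was -1.55 (SE 0.28, adjusted p = 0.0520). This miss passed with a smaller pseudocount (adjusted p = 0.0292) and with the replicate block (adjusted p = 0.0399), though same-numbered pairs here correlated at 0.632, 0.049 and 0.655. No domain gene was called with no filter, without Rn45s, without all replicate 2 libraries, with only the groups compared or with any 1 library left out. Fgfr2 was picked after its values were seen.

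At day 4, 2 domain genes rose in the mutant and 0 fell, where 0.0494% of all genes were called (0.0282% higher, 0.0212% lower). Cdkn2a was at 12.0, 16.9 and 8.07 RPKM in mutant libraries, against 1.24, 1.54 and 1.34 RPKM in WT, a log2 difference of 2.44 (SE 0.38, adjusted p = 0.0215). En2 was at 2.48, 4.56 and 3.45 RPKM in mutant libraries, against 0.578, 0.491 and 1.13 RPKM in WT, a log2 difference of 1.37 (SE 0.22, adjusted p = 0.0297). Every mutant library was above every WT library for both genes. Neither was called without mutant library 2, WT library 1 or WT library 2, En2 was lost without mutant library 3 and Cdkn2a without mutant library 1, and without WT library 3 there were 6 calls. Limma voom, the fit of only the 2 groups and the fit without all replicate 2 libraries each called 0 domain genes at day 4.

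At day 8, 10 domain genes rose in the mutant and 1 fell, which is 3.44% of those tested where 1.51% of all genes were called (1.3% higher, 0.212% lower). The share called was close to this in broad domains with Ring1B, at 2.96%, and in shorter peaks without Ring1B, at 3.04%. Cdkn2a led again, at 31.6, 23.8 and 10.5 RPKM in mutant libraries, against 1.49, 1.69 and 1.05 RPKM in WT (log2 difference 3.14, SE 0.38, adjusted p = 0.00150). Its neighbour in the same domain, Cdkn2b, which encodes the cell-cycle inhibitor p15INK4b, was at 7.21, 4.54 and 4.55 RPKM in mutant libraries, against 0.461, 1.20 and 0.571 RPKM in WT (log2 difference 1.88, SE 0.39, adjusted p = 0.0311). Both were thus low in every WT library and several-fold higher in every mutant one. The values are per gene and do not separate the Cdkn2a starts shown above.

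Fgf4, a growth factor of pluripotent cells, was at 33.2, 70.2 and 54.0 RPKM in mutant libraries, against 0.577, 0.869 and 18.0 RPKM in WT (log2 difference 3.74, SE 0.76, adjusted p = 0.0275). Etv4, an ETS factor induced by FGF signals, was at 6.38, 19.7 and 13.5 RPKM, against 1.48, 1.85 and 5.61 RPKM in WT (log2 difference 1.86, SE 0.41, adjusted p = 0.0393). In both genes WT library 3 was the highest of its group. Palm3 of the paralemmin family was at 8.77, 17.6 and 12.8 RPKM in mutant libraries, against 2.26, 4.45 and 3.88 RPKM in WT (log2 difference 1.62, SE 0.32, adjusted p = 0.0266). The other rises were Aes, a Groucho-family corepressor, Mpc1, a mitochondrial pyruvate carrier, Slc17a7, a vesicular glutamate transporter, Shisa7 and the predicted gene Gm38426, with log2 differences of 1.25, 0.76, 0.85, 0.90 and 0.86.

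Crabp2, which carries retinoic acid to its receptors, was the 1 fall at day 8. It was at 8.65, 2.34 and 2.36 RPKM in mutant libraries, against 24.4, 23.7 and 26.8 RPKM in WT (log2 difference -2.44, SE 0.36, adjusted p = 0.00582), and the groups did not overlap.

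The day 8 count depended on the fit and on single libraries. The fit of only the 2 groups called 0 domain genes (Cdkn2a adjusted p = 0.136, Crabp2 adjusted p = 0.161), and limma voom called 1, Cdkn2a (adjusted p = 0.00575). Without all replicate 2 libraries, whose Rn45s share is high, limma called 0 (Cdkn2a adjusted p = 0.327). With Rn45s left out of the scaling, limma called 13, among them all 11, and limma voom called 5. There were 66 calls (27 higher, 39 lower) without WT library 3, among them all 11, and 23 without mutant library 1, again with all 11. There were 2 calls without WT library 1, WT library 2 or mutant library 2, in each case Cdkn2a and Crabp2, and 4 without mutant library 3. Summed ES cell markers, 5 genes, were at 239 to 710 RPKM in mutant libraries, against 43.0 to 408 RPKM in WT, and their part in these differences was not tested. In bulk libraries fewer cells of a type and less RNA per cell cannot be told apart.

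**Figure D3:**
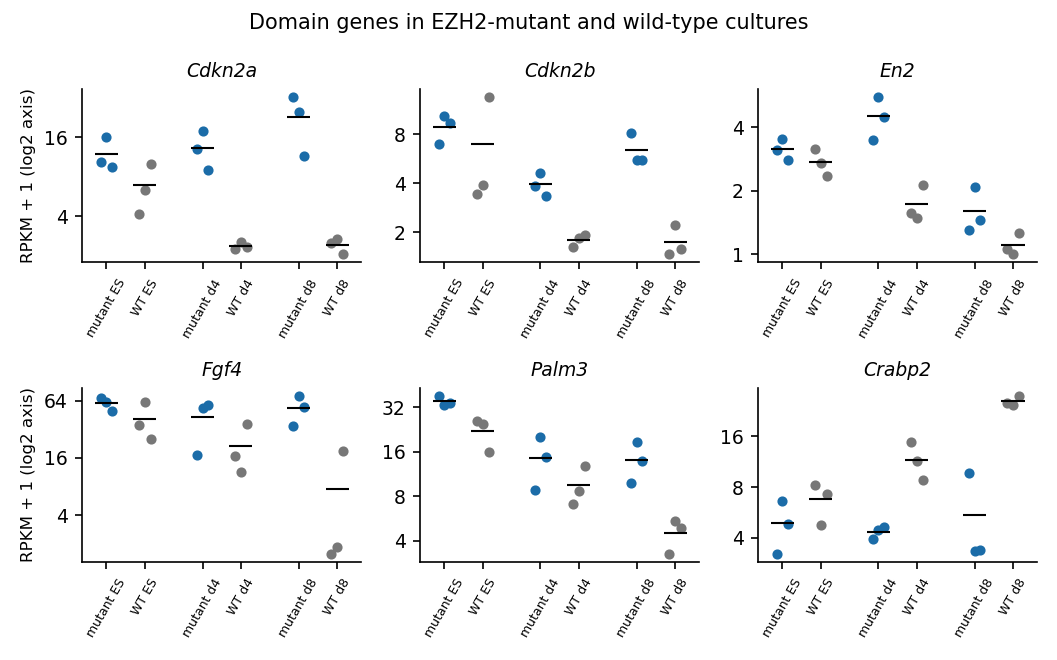
RPKM + 1 (vertical axis, log2 scale) of 6 domain genes in mutant and WT cultures by stage (horizontal axis, mutant left of WT). Points are single libraries and lines are group means. Cdkn2a in the mutant at day 8 is at 10.5 to 31.6 RPKM before the 1 is added, above WT at 1.05 to 1.69 RPKM.

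The comparison of GSK343 with DMSO asks the same of an inhibited enzyme. In ES cells 0 of 311 domain genes were called by limma, as were 0 (0%) of all 14016 genes, with 43 domain genes and 669 genes in all at an unadjusted p below 0.05. Limma voom also called 0 domain genes. At day 4, 11 domain genes rose and 2 fell, which is 4.18% of those tested where 0.628% of all genes were called (0.499% higher, 0.128% lower). The share was 0.463% in broad domains with Ring1B and 1.23% in shorter peaks without Ring1B. At day 8, 75 rose and 91 fell, which is 53.4% where 31.6% of all genes were called (15.6% higher, 16% lower). It was 58.8% in broad domains with Ring1B and 45.8% in shorter peaks without Ring1B. The median log2 difference of the domain genes was near 0 at -0.0020, as was that of all genes at 0.0013, while for 216 genes in broad domains with Ring1B it was -0.57, with 26 higher and 101 lower. Broad domains with and without Ring1B were not compared by a test.

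**Figure D4:**
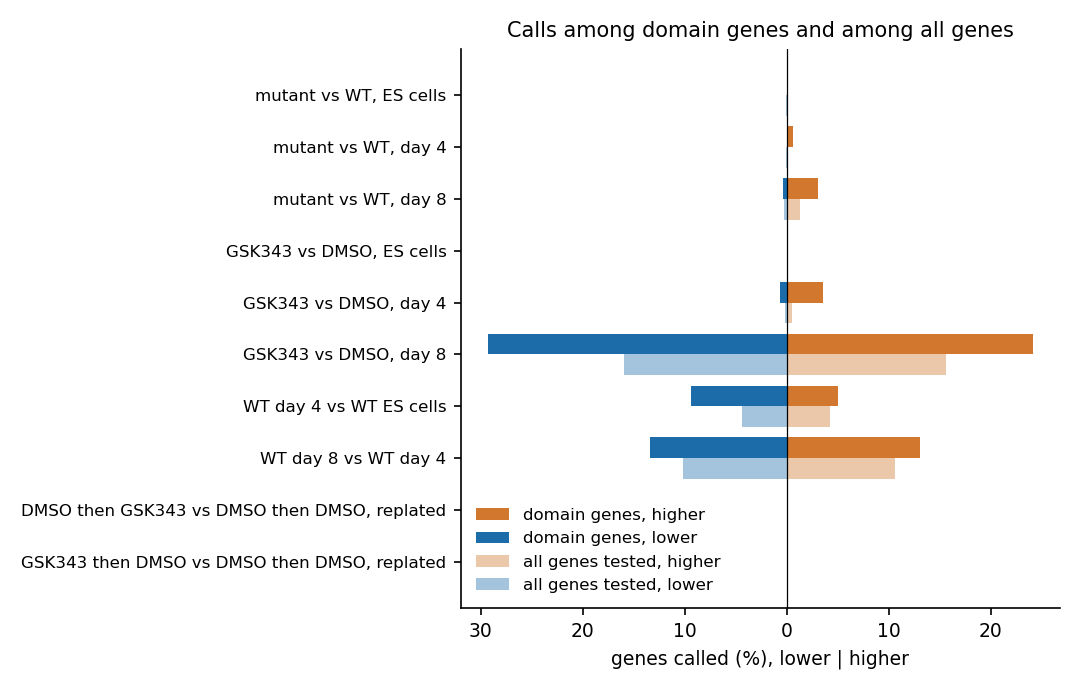
Share of genes called lower (to the left) and higher (to the right) in each comparison, as percent of genes tested, for domain genes above all genes. GSK343 against DMSO at day 8 has the longest bars, with 53.4% of domain genes called in all, against 31.6% of all genes.

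The largest rises at day 4 were Esrrb, Notum and Bmp4. Esrrb, an orphan nuclear receptor of naive pluripotency in the domain chr12:86410503-86436568, was at 27.5 and 23.5 RPKM in GSK343 libraries 1 and 2, against 6.46 and 3.87 RPKM in DMSO (log2 difference 2.13, SE 0.27, adjusted p = 0.00949). Notum, a secreted esterase that inactivates Wnt proteins, was at 22.0 and 22.9 RPKM with GSK343, against 5.22 and 3.83 RPKM with DMSO (log2 difference 2.10, SE 0.25, adjusted p = 0.00775). Bmp4, a growth factor of mesoderm formation in chr14:46375568-46401481, was at 10.3 and 12.6 RPKM with GSK343, against 1.93 and 2.52 RPKM with DMSO (log2 difference 1.95, SE 0.28, adjusted p = 0.0177). In each of them both GSK343 libraries were above both DMSO libraries, and in none of the 13 calls did the groups overlap. With 2 against 2 libraries a call nearly fixes this in advance, so it adds no support.

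Nphs1 was at 8.19 and 8.61 RPKM at day 4 with GSK343, against 1.95 and 1.79 RPKM with DMSO (log2 difference 1.71, SE 0.15, adjusted p = 0.00261). Cnpy1 was at 11.0 and 7.77 RPKM with GSK343, against 2.36 and 1.80 RPKM with DMSO (log2 difference 1.74, SE 0.20, adjusted p = 0.00723). The other rises were Cdkn2a (log2 difference 1.65), Kirrel2, a nephrin-like protein next to Nphs1 (1.43), Ltb, the cytokine lymphotoxin beta (1.56), Socs3, which inhibits cytokine signalling (1.21), the phosphatase Ppm1j (1.59) and the endothelial adhesion protein Esam (1.38). Cdkn2a was at 13.5 and 10.8 RPKM with GSK343, against 4.14 and 2.37 RPKM with DMSO, so it rose both with the inhibitor and in the mutant at this stage.

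Prickle1, a planar cell polarity gene, fell at day 4 to 3.47 and 4.00 RPKM with GSK343, against 12.2 and 15.4 RPKM with DMSO (log2 difference -1.64, SE 0.22, adjusted p = 0.0124). Rimkla, an enzyme that makes a neural dipeptide, fell to 1.94 and 2.18 RPKM, against 3.79 and 4.61 RPKM (log2 difference -0.76, SE 0.13, adjusted p = 0.0325). Leaving out DMSO library 2 ended all 13 calls. Leaving out DMSO library 1 kept 5 of them, leaving out GSK343 library 2 kept 3, and leaving out GSK343 library 1 kept 2, Nphs1 and Ltb.

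Cell type markers also differed between the day 4 groups. Summed ES cell markers were at 920 to 1067 RPKM with GSK343, against 733 to 820 RPKM with DMSO. Streak markers were at 5.33 to 6.82 RPKM with GSK343, against 9.42 to 11.3 RPKM with DMSO, and feeder markers at 2.89 to 3.25 RPKM, against 6.13 to 6.54 RPKM. The ranges of neural, cardiac and endoderm markers overlapped between the groups. The part of these markers in the day 4 differences was not tested.

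The largest rises at day 8 were Lefty1, Utf1, Fgf4, Esrrb and Sox2. Lefty1 in chr1:180913971-180945769 was at 41.4 and 49.0 RPKM with GSK343, against 1.77 and 1.62 RPKM with DMSO (log2 difference 4.098, SE 0.18, adjusted p = 2.46e-07). Utf1, in chr7:139935635-139970872, was at 119 and 132 RPKM with GSK343, against 6.09 and 6.83 RPKM with DMSO (log2 difference 4.09, SE 0.12, adjusted p = 2.03e-08). Sox2, in chr3:34638979-34673998, was at 146 and 194 RPKM with GSK343, against 16.7 and 19.3 RPKM with DMSO (log2 difference 3.16, SE 0.17, adjusted p = 1.08e-06). Fgf4 (log2 difference 4.07) and Esrrb (3.50) rose too, to 51.4 and 104 RPKM and to 22.5 and 38.6 RPKM with GSK343, against 3.80 and 3.10 RPKM and 2.15 and 1.30 RPKM with DMSO.

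The largest falls at day 8 were Tbx20, Dlk1, Phlda2, Isl1 and Hspa1a. Tbx20, in chr9:24762490-24784099, was at 0.811 and 0.696 RPKM with GSK343, against 23.5 and 19.2 RPKM with DMSO (log2 difference -3.67, SE 0.27, adjusted p = 6.46e-06). Isl1, a factor of heart progenitors in chr13:116289606-116318711, was at 1.19 and 0.235 RPKM with GSK343, against 17.0 and 10.9 RPKM with DMSO (log2 difference -3.15, SE 0.27, adjusted p = 2.24e-05). Hspa1a, an inducible heat-shock protein of the Hsp70 family, was at 0.536 and 0.482 RPKM with GSK343, against 19.3 and 6.03 RPKM with DMSO (log2 difference -2.98, SE 0.37, adjusted p = 0.000229). Its near-identical neighbour Hspa1b fell with it (log2 difference -2.13), and how reads were split between them was not stated. Efnb1, in the wide X domain, fell to 2.44 and 1.96 RPKM, against 20.9 and 27.8 RPKM (log2 difference -2.98, SE 0.17, adjusted p = 1.38e-06).

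**Figure D5:**
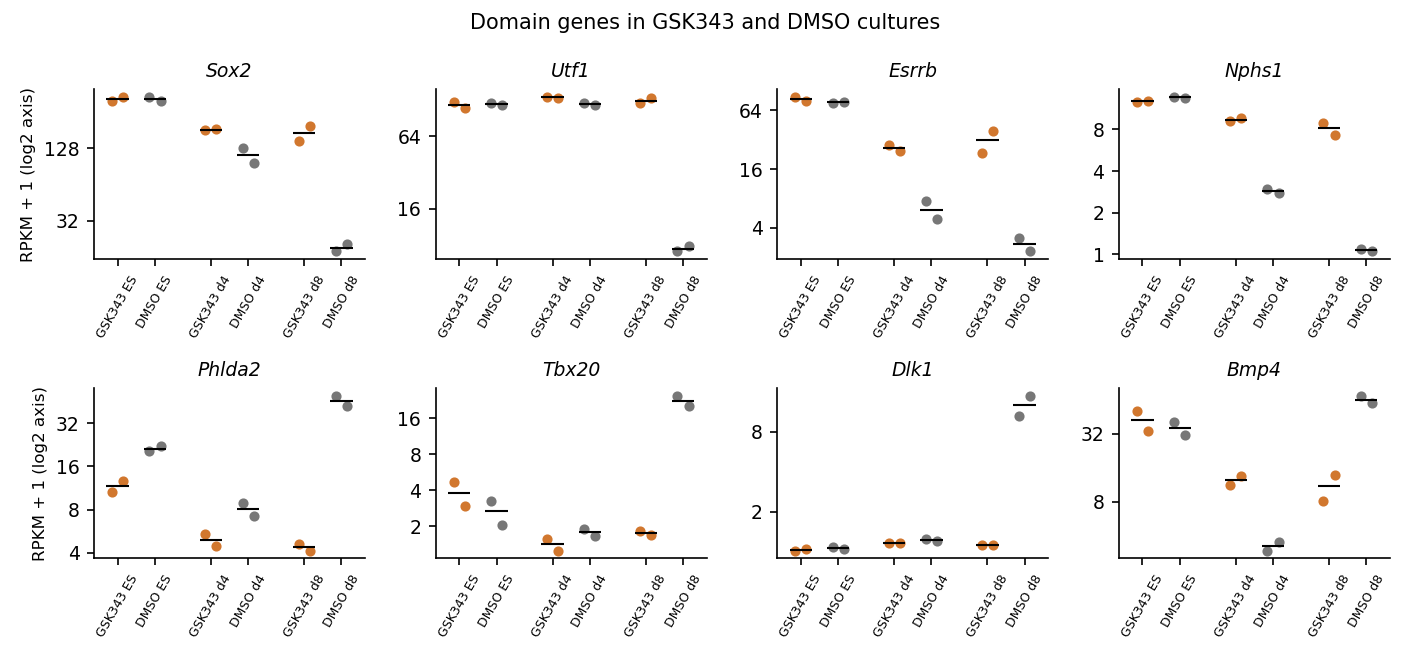
RPKM + 1 (vertical axis, log2 scale) of 8 domain genes with GSK343 and DMSO by stage (horizontal axis, GSK343 left of DMSO). Points are single libraries and lines are group means. Utf1 at day 8 is at 119 and 132 RPKM with GSK343, against 6.09 and 6.83 RPKM with DMSO, and Tbx20 is at 0.811 and 0.696 RPKM, against 23.5 and 19.2 RPKM.

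Of the 6 domain genes on the list of imprinted genes, 5 were lower with GSK343 at day 8 and 0 higher, where 29.3% of domain genes and 16% of all genes were lower. Their median log2 difference was -1.57, beside -0.0020 for domain genes and 0.0013 for all genes. Dlk1, a Notch-like ligand, was at 0.132 and 0.134 RPKM with GSK343, against 9.52 and 13.8 RPKM with DMSO (log2 difference -3.46, SE 0.15, adjusted p = 2.76e-07). Phlda2 was at 3.64 and 3.14 RPKM with GSK343, against 48.5 and 41.4 RPKM with DMSO (log2 difference -3.39, SE 0.17, adjusted p = 7.57e-07). Ndn, a growth suppressor of neurons, Cdkn1c and Mkrn3 fell by 1.85, 1.30 and 0.81 on the log2 scale. Slc22a18, in the same widest domain as Phlda2 and Cdkn1c, was at 0.615 and 0.596 RPKM, against 0.449 and 0.491 RPKM (log2 difference 0.13, adjusted p = 0.777). In the mutant at day 8, 0 of the 6 were called, where 3.44% of domain genes and 1.51% of all genes were, so this count says little. Their median was -1.48, beside -0.0087 for domain genes and -0.0228 for all genes.

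Of 20 developmental regulators tested at day 8, 3 rose with GSK343 (Sox2, Fgf4 and the paired-box gene Pax8, by 0.44) and 7 fell, with a median of -0.23. Over all domain genes tested 24.1% were higher and 29.3% lower, and over all genes 15.6% were higher and 16% lower. The falls were Tbx20, Bmp4, Fgfr2, Fgf3, Fgf8, Gata5 and Wnt6. Fgfr2 was at 2.52 and 2.78 RPKM with GSK343, against 21.5 and 17.1 RPKM with DMSO (log2 difference -2.47, SE 0.15, adjusted p = 2.07e-06). Gata5, a heart and endoderm factor, is listed at 0 in both GSK343 libraries, against 1.44 and 1.73 RPKM with DMSO. At day 4 Bmp4 alone of the 20 was called with GSK343, where 4.18% of domain genes and 0.628% of all genes were. In the mutant Fgf4 alone was called at day 8, where 3.44% of domain genes and 1.51% of all genes were.

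Called genes that share a domain mostly had 1 direction at day 8 with GSK343. Of 144 domains with a called gene, 17 had 2 or more, and in 14 of these all went one way. For WT day 8 against day 4 it was 5 of 7 such domains. Some of the 14 hold related neighbours, such as Stat5a with Stat5b and Hspa1a with Hspa1b. Neighbouring called genes outside the domains were not counted, so this is not shown to be a trait of the domains. Nphs1, its antisense gene Nphs1os, Kirrel2 and Aplp1, an amyloid precursor-like gene, all rose in chr7:30440368-30469225. Use of strand in counting is not stated, so Nphs1 and Nphs1os may share reads. Nphs1 was at 7.95 and 6.31 RPKM with GSK343, against 0.0860 and 0.0504 RPKM with DMSO, and Kirrel2 was at 5.37 and 3.76 RPKM, against 0.195 and 0.0731 RPKM. Cdkn2a and Cdkn2b rose together, as did Mt1 with Mt2 and Cnpy1 with En2. Fgf3 and Fgf4, in chr7:144833160-144868435, went opposite ways: Fgf3 was at 1.14 and 0.767 RPKM with GSK343, against 12.3 and 5.40 RPKM with DMSO (log2 difference -2.25, SE 0.32, adjusted p = 0.000534). The other domains with both directions held Psca and Them6, and Dnase2a, Gm38426 and Klf1.

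Of 226 tested genes in domains with a Suz12 peak at WT day 8, 60 (26.5%) rose and 61 (26.99%) fell with GSK343 at day 8. Of 85 in domains without one, 15 (17.6%) rose and 30 (35.3%) fell, beside 15.6% higher and 16% lower of all genes. The difference was not tested.

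Cell type markers moved with these day 8 groups. Summed ES cell markers (5 genes) were at 743 to 1010 RPKM with GSK343, against 90.2 to 96.2 RPKM with DMSO, and 3 neural markers at 53.6 to 57.8 RPKM, against 7.48 to 7.75 RPKM. The neural sum was already at 48.4 to 55.7 RPKM in DMSO ES cells and 50.2 to 61.4 RPKM in GSK343 ES cells. It is thus not particular to neural cells here. Sums of 4 cardiac markers were at 10.8 to 19.1 RPKM with GSK343, against 31.5 to 58.9 RPKM, those of 5 endoderm markers at 2.86 to 22.0 RPKM, against 65.9 to 90.5 RPKM, and those of 5 streak markers at 4.75 to 21.8 RPKM, against 49.6 to 133 RPKM. Feeder markers (5 genes) were at 3.85 to 13.1 RPKM with GSK343, against 40.6 to 116 RPKM with DMSO. In DMSO at day 4 the same sum was lower, at 6.13 to 6.54 RPKM. Whether these genes mark feeders or other cells at day 8 was not tested. No marker of these lists was at 0 in the day 8 libraries, and the part of cell make-up in the domain genes' differences was not tested.

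The effect of GSK343 differed between stages for many domain genes. This test of the difference itself was added after the first fits had been seen. Between day 8 and day 4 it called 88 of 311 domain genes, 36 higher and 52 lower at day 8, which is 28.3% where 12.2% of all genes were called. Bmp4 changed sign, since it was at 7.13 and 12.9 RPKM at day 8 with GSK343, against 68.7 and 59.0 RPKM with DMSO (log2 difference -2.61, SE 0.28, adjusted p = 8.34e-05). Socs3 and Esam did so too, since their differences between the stages, -1.57 and -1.87, were larger in size than their rises at day 4. Rimkla changed sign the other way, since its difference between the stages, 1.59, was larger than its fall at day 4. Between day 4 and ES cells 2 domain genes were called, where 0.0214% of all genes were, namely Ltb (difference of 1.88) and Nphs1 (1.82), each with an adjusted p of 0.0252. For the mutant effect 0 domain genes were called by limma between day 8 and day 4 (20 at an unadjusted p below 0.05; 0% of all genes called) or between day 4 and ES cells (11; 0%).

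Differentiation itself moved domain genes in WT cells, with each comparison sharing its day 4 libraries with the other. At day 4 against ES cells 16 rose and 30 fell, which is 14.4% where 8.67% of all genes were called (4.29% higher, 4.39% lower). The share was 12.3% in broad domains with Ring1B and 15.4% in shorter peaks without Ring1B. Pou3f1, a POU factor of the epiblast and neurons, was at 37.0, 38.0 and 16.0 RPKM at day 4, against 3.87, 2.54 and 5.13 RPKM in ES cells (log2 difference 2.63, adjusted p = 0.00819). Socs3 was at 2.03, 2.46 and 6.64 RPKM at day 4, against 79.9, 88.1 and 30.6 RPKM in ES cells (log2 difference -3.82, adjusted p = 7.49e-05). Esrrb was at 2.25, 1.26 and 22.5 RPKM at day 4, against 109, 134 and 29.7 RPKM in ES cells (log2 difference -3.79, adjusted p = 0.0147), so in both genes library 3 of either stage lay nearest to the other stage. Further rises were Prickle1 (1.67), the exchange factor Trio (1.67), Rimkla (1.61) and Necab2 (1.21), and further falls Kdelr3 (-2.25), the kinase Jak3 (-1.83) and Ppm1j (-1.80). The 46 calls became 69 without WT day 4 library 3, 59 without ES cell library 3, 21 and 19 without ES cell libraries 1 and 2, and 11 and 12 without day 4 libraries 1 and 2. Without all replicate 2 libraries it was 0, with limma voom 24 and with only the groups compared 10.

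At day 8 against day 4, 42 domain genes rose and 43 fell in WT, which is 26.6% where 20.7% of all genes were called (10.6% higher, 10.2% lower). The share was 43.8% in broad domains with Ring1B and 25.2% in shorter peaks without Ring1B. Efnb1 was at 30.7, 27.2 and 2.63 RPKM at day 8, against 0.688, 0.434 and 1.06 RPKM at day 4 (log2 difference 3.11, adjusted p = 0.00411). Tinagl1, an extracellular matrix protein, was at 9.50, 7.05 and 7.37 RPKM at day 8, against 0.277, 0.536 and 0.0892 RPKM at day 4 (log2 difference 2.79, adjusted p = 0.000184). Utf1 was at 3.87, 3.92 and 41.3 RPKM at day 8, against 124, 140 and 63.3 RPKM at day 4 (log2 difference -3.38, adjusted p = 0.0122). Etv4 was at 1.48, 1.85 and 5.61 RPKM at day 8, against 23.2, 29.1 and 47.5 RPKM at day 4 (log2 difference -3.19, adjusted p = 0.000344). Day 8 library 3 was closest to day 4 in Efnb1, Utf1 and Etv4, and not in Tinagl1.

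Other named rises at day 8 against day 4 were the hormone gene Sct (2.39), the parathyroid hormone receptor Pth1r (2.30) and Ypel2 (2.17), and other falls Pou3f1 (-2.78), the neuronal Crmp1 (-2.12) and the relaxin-family gene Rln3 (-1.95). Of the developmental regulators Fgfr2, Fgf11, Tbx5, Gata5 and Tbx20 rose and Fgf4 fell. Genes in broad domains with Ring1B gave 72 rises and 17 falls of 203. The 85 calls became 131 (78 higher, 53 lower) with the replicate block, whose numbers pair these samples, and 151 (97 higher, 54 lower) without day 8 library 3. They became 27 and 36 without day 8 libraries 1 and 2, 46 and 45 without day 4 libraries 1 and 2, and 1, Tinagl1, without all replicate 2 libraries. Limma voom called 39 and the fit of only the groups compared 30.

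In replated cells limma called 0 of 311 domain genes and 0 (0%) of 14367 genes in either comparison, and limma voom also called 0 domain genes. For GSK343 then DMSO against DMSO then DMSO, 66 domain genes had an unadjusted p below 0.05 and the smallest adjusted p was 0.169. Here the fit with only the groups compared, so without the DMSO then GSK343 and GSK343 then GSK343 libraries, called 16 domain genes. Leaving out DMSO then DMSO library 1 gave 13. Sox2 was at 81.1, 106 and 72.1 RPKM in GSK343 then DMSO, against 51.0, 2.58 and 3.22 RPKM in DMSO then DMSO, and Utf1 at 78.0, 170 and 97.9 RPKM, against 72.3, 0.207 and 2.05 RPKM. Library 1 of DMSO then DMSO thus stood near the GSK343 libraries for both genes. For DMSO then GSK343 against DMSO then DMSO, 7 domain genes had an unadjusted p below 0.05 and the smallest adjusted p was 0.885. Summed ES cell markers, which include Sox2, were at 439 to 752 RPKM in GSK343 then DMSO, against 6.47 to 328 RPKM in DMSO then DMSO. Sums of 5 feeder markers were at 801 to 1997 RPKM in GSK343 then DMSO, against 1037 to 3065 RPKM in DMSO then DMSO. The part of these markers was not tested.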

How the data were processed

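RNA-seq values are RPKM, deposited by the authors in 3 tables and named so per the file headers. Per the submitters' processing notes STAR 2.5.3, featureCounts 1.6.1, edgeR, HOMER 4.10.3, Bowtie2 2.3.4.3 and mm10 were used, with no role or order given. Peak lists hold the authors' deposited start and end positions, without a signal. Low RPKM values are whole multiples of 1 read, so depth and reads were recovered, with 100% of values within 0.02 of a whole read. 138 genes of the WT and mutant table had no length and no recovered reads.

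RPKM was tested with limma 3.58.1 (trend) in R 4.3.3 on log2(RPKM + 1), for genes that reached 0.5 RPKM in a number of libraries equal to the size of the smallest group (14180 of 14772, 14016 of 14607 and 14367 of 14833 genes). All groups of a table entered 1 fit and Benjamini-Hochberg adjustment covered all genes. Overlaps and promoter content were computed with Python 3.11.15, pandas 2.3.3 and numpy 2.4.6, with genes from RefSeq (GRCm38.p6; no promoters on chromosome 18), which matched 15644 of 15924 gene names by symbol and 252 by synonym. The scripts were tested on simulated data.

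Domains and gene lists were chosen with earlier results of these data known. Named genes are, per comparison, up to 5 largest rises and 5 largest falls among called genes with no overlap of groups and a mean of at least 1 RPKM, genes of the 5 widest domains, the 5 highest in WT ES cells, and list members in domains. Further genes (Fgfr2, Aes, Aplp1, Ltb and others outside this rule) were chosen after their values were seen.

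Replicate numbers were taken to pair samples where every same-numbered pair deviated together (correlation over 0.1 in 3 or more pairs): mutant and WT at day 4 (0.637, 0.290 and 0.806), WT day 4 and ES cells (0.292, 0.151 and 0.260) and WT day 8 and day 4 (0.222, 0.425 and 0.415). Alternatives were pseudocount 0.1, no filter, limma voom on recovered reads, only the groups compared, the replicate block, each replicate left out, genes placed by any overlap, and other domain limits. Those without Rn45s or without all replicate 2 libraries were added after the data were seen.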

Additional observations from a re-analysis of the deposited data

Results flagged for a closer look

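For 88 domain genes the effect of GSK343 over DMSO differed between day 8 and day 4 by an interaction term in limma, adjusted over all genes. Listed here are only those also named above among the largest rises or falls with GSK343 at day 4 or day 8. This test was added after the first fits had been seen. Values are day 8 minus day 4 on the log2 scale.

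The effect was higher at day 8 for Lefty1 by 4.07 (adjusted p = 9.21e-06), for Utf1 by 3.89 (6.64e-07), for Fgf4 by 3.05 (0.00153) and for Sox2 by 2.44 (0.000183). It was also higher for Rimkla by 1.59 (0.000461), Esrrb by 1.37 (0.0413), Nphs1 by 1.21 (0.00500) and Cnpy1 by 1.07 (0.0371).

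The effect was lower at day 8 for Bmp4, with a difference of -4.55 (adjusted p = 7.03e-05), Isl1 with -3.67 (0.000262), Dlk1 with -3.38 (1.20e-05) and Tbx20 with -3.33 (0.000398). It was also lower for Hspa1a with -3.20 (0.00376), Phlda2 with -2.67 (0.000106) and Notum with -1.43 (0.0274). Of these, Bmp4 was the gene whose called effect was above 0 at day 4 and below 0 at day 8. Rimkla went the other way, from a called fall at day 4 to an effect above 0 at day 8. Outside this list, Socs3 (-1.57, adjusted p = 0.00322) and Esam (-1.87, adjusted p = 0.00866) had differences larger in size than their called rises at day 4.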

How the results depend on the processing

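Numbers of domain genes called are given here. The alternatives that left them within 1.5 times the main number have no value below. A pseudocount of 0.1 gave 1 for mutant against WT in ES cells (main 0) and 1 at day 4 (main 2). Limma voom gave 0 and 1 for the mutant at day 4 and day 8 (main 2 and 11), and 24 and 39 for WT day 4 against ES cells and WT day 8 against day 4 (main 46 and 85). The fit with only the groups compared gave 0 and 0 for the mutant at day 4 and day 8, 20 for GSK343 at day 4 (main 13), 10 and 30 for the WT stages, and 16 for GSK343 then DMSO against DMSO then DMSO (main 0). The replicate block gave 1 for the mutant in ES cells, 20 at day 8 (pairs of this stage correlated at 0.746, -0.259 and 0.635) and 131 for WT day 8 against day 4, and changed no other count by over 1.5 times. Placing genes by any overlap gave 17 for the mutant at day 8. The cause of these changes was not tested.

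The following were chosen after seeing the data, because Rn45s takes much of the replicate 2 libraries. Rescaling RPKM without Rn45s kept all counts within 1.5 times. Limma voom without Rn45s gave 0 and 5 for the mutant at day 4 and day 8, and 25 and 54 for the WT stages. Leaving out all replicate 2 libraries, so that 2 are left in each group, gave 0 and 0 for the mutant at day 4 and day 8 and 0 and 1 for the WT stages.

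With each replicate left out in turn, the counts ran from 0 to 0 and 0 to 6 and 2 to 66 for the mutant in ES cells, at day 4 and at day 8, from 0 to 1, 0 to 5 and 118 to 155 for GSK343 at these stages, from 11 to 69 and 27 to 151 for the WT stages, and from 0 to 13 and 0 to 0 for the early and late treatment of replated cells, with 13 without DMSO then DMSO library 1. GSK343 against DMSO at day 8 (166) was within 1.5 times in all alternatives run on it. No named gene changed sign. A width limit of 10000 bp gave 2397 domains with 2434 genes, and 50000 bp gave 37 with 113 (main 605 and 881).

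Peak lists carry no depth, so shares of domains with Suz12 have no error. With 2 GSK343 and 2 DMSO libraries per stage, precision is limited by the number of libraries.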
